A study of Mus musculus with 12 samples.

Results

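The genes described here are 9 structural keratins of mouse keratinocytes, taken by gene name from the 54532 genes of the count table. They are the basal keratins Krt5, Krt14 and Krt15, the suprabasal keratins Krt1 and Krt10, and the simple epithelial keratins Krt7, Krt8, Krt18 and Krt19. They make up 9 of the 55 genes whose symbol is Krt followed by a digit. The cells were cultured keratinocytes of a single genotype, labelled WT DP-BirA(1-584), in which an inducible piece of desmoplakin carried the biotin ligase BirA to cell contacts. All groups received calcium (1.2 micromolar as the labels state it), doxycycline at 2 µg/mL to switch on the fusion protein, and biotin for 16 h. From the translating fraction of a sucrose gradient, RNA held by neutravidin is the cortical fraction, and what the resin left behind is named total. Both fractions were taken from unwounded and from wounded cultures, so that 12 libraries formed 4 groups of 3. The labels name the replicates biological but name no animal, dish or clone, so the p-values measure the spread between these libraries only. The total fraction lacks the RNA that the resin removed, so it is not a whole-cell translatome.

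Keratins are the intermediate filament proteins of epithelia, and a filament is built from pairs of 1 type I and 1 type II chain. Krt5 (type II) pairs with Krt14 (type I) in the dividing basal layer of the epidermis, and cells that leave that layer switch to the pair Krt1 (type II) and Krt10 (type I). Krt8 (type II) and Krt18 (type I) form the filaments of simple, single-layered epithelia, with Krt7 (type II) and Krt19 (type I) as further chains of ducts and glands. Keratin filaments end on desmosomes, where desmoplakin anchors them at the cell border.

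The libraries held 8980013 to 23457548 counts, and 13571 genes passed the filter on low counts and were tested. Of the 9 keratins, 8 passed that filter, and Krt18 did not. Krt1 and Krt8 lay close to the limit and passed through the groups in which they were highest. Replicate 1 of the wounded total group stood apart from the other libraries. It had counts for 13117 genes, against 14393 to 16867 elsewhere, and 35.9% of the genes expected there at 10 to 20 counts were at 0, against 0.617% to 11.4% elsewhere. Results that rest on this library are given with and without it. Keratinocyte markers were detected in all libraries, for 8 of 8 genes. Their summed level was 10956 to 21119 CPM (counts scaled to a common library size after TMM normalisation). Krt5 and Krt14 are among these markers, with means of 4079 and 4489 CPM in unwounded total and 7430 and 10353 CPM in wounded cortical. The sum is therefore not independent of the keratins described here. The 7 immune cell markers summed to at most 0.669 CPM and 0 of them passed the filter. Of 10 fibroblast markers 2 passed, with a sum of at most 6.47 CPM, with Dcn and Thy1 at 0. Of 7 melanocyte markers 2 passed, with a sum of at most 10.4 CPM. Of 5 endothelial markers 1 passed, with a sum of at most 1.87 CPM. Merkel cells also carry simple epithelial keratins. Of their 6 markers 3 passed, with a sum of 21.1 to 44.4 CPM, and Atoh1, their defining factor, was at 0 in all 12 libraries.

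The 9 genes lie in the 2 keratin clusters of the mouse genome. On build GRCm38, Krt5 (15:101707070-101712898), Krt1 (15:101845426-101850794), Krt7 (15:101411043-101430313) and Krt8 (15:101996698-102004482) are in the type II cluster on chromosome 15. Krt14 (11:100203162-100207548), Krt15 (11:100131758-100135928), Krt19 (11:100140810-100148665) and Krt10 (11:99385254-99389364) are in the type I cluster on chromosome 11. Krt18 (15:102028180-102032027) is the exception among type I genes, since it sits 23697 bases from its partner Krt8.

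Close relatives share long identical stretches of coding sequence, and those of Krt14 and Krt15 are shown because reads from basal keratins can also match another keratin. In the GENCODE M21 transcripts, capitals mark the longest run of a keratin that is identical in a transcript of another gene, with flanking coding bases of the keratin itself in lower case. The run of Krt14 (11:100207017-100207150, exon 1, minus strand) spans 134 bases and is shared with Krt16. The run of Krt15 (11:100135515-100135573, exon 1, minus strand) spans 59 bases and is shared with Krt25, which had 0 counts in all 12 libraries. The stretches hold the code for the start of the rod domain, the best conserved part of keratin chains.
Krt14 with Krt16: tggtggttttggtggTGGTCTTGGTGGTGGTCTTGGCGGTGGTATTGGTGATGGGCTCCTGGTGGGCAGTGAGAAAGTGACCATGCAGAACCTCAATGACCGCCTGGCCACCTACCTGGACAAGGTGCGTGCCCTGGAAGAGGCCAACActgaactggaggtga
Krt15 with Krt25: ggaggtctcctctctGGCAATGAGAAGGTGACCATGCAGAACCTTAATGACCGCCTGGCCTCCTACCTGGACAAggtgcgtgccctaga

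Such stretches were a small part of most of these transcripts. Of all 100-base windows, 3.81% in Krt5 and 2.88% in Krt14 also occurred in another gene, and 0% did so in Krt15, Krt1, Krt10, Krt7, Krt18 and Krt19. Krt8 had the highest share at 17.1%, almost all of it matching the pseudogene Krt8-ps, which had 0 counts in all 12 libraries. With 50-base windows the shares were 12.2% for Krt5, 14.4% for Krt14 and 29.7% for Krt8. By 50-base windows, Krt5 shared most with Krt6a (504265 counts over the 12 libraries). Krt14 shared windows with Krt16 (88696 counts) and Krt17 (1027546 counts). How reads that fit several genes were counted is not given in the sources used here, so counts of Krt5, Krt14 and Krt8 carry that uncertainty. The part of such reads in the differences of Krt5 and Krt14 was not tested. The libraries were not directional. Krt10 overlaps the antisense gene Gm11940 (32 counts over the 12 libraries), Krt8 overlaps Gm36026 (8 counts), and Krt5 and Krt7 overlap Gm44323 and Gm671 (0 counts each).

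The level of these keratins spanned more than 4 orders of magnitude, and the basal pair held nearly all of it. FPKM (fragments scaled by gene length and by library depth) was used to compare genes of different length. In the unwounded total group the FPKM was 2509 ± 179 (SD, n = 3) for Krt14, 1824 ± 161 for Krt5 and 111 ± 16.1 for Krt15. Krt14 alone made up 55.8% of the summed FPKM of the 9 genes in that group, 56.7% in unwounded cortical, 62.5% in wounded total and 62.1% in wounded cortical. Krt19 followed at 35.5 ± 4.44 FPKM, ahead of Krt10 at 10.6 ± 1.34 FPKM. Krt7 was at 2.08 ± 0.383, Krt8 at 1.12 ± 0.178 and Krt1 at 0.133 ± 0.106 FPKM in unwounded total. The order Krt14, Krt5, Krt15, Krt19, Krt10 was the same in the 4 groups, with no overlap between neighbours in any group. Below Krt10 the order varied: Krt7 and Krt8 overlapped in unwounded cortical (0.737 ± 0.306 and 0.890 ± 0.298 FPKM), and Krt1 and Krt8 overlapped in both wounded groups. The gene length used by the authors for Krt7 was 7049 bases against 4094 in its principal transcript, and for Krt1 4415 against 2455, so FPKM places both lower than a transcript-based length would. With transcript lengths, Krt7 ranked 6 in all 4 groups.

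**Figure D1:**
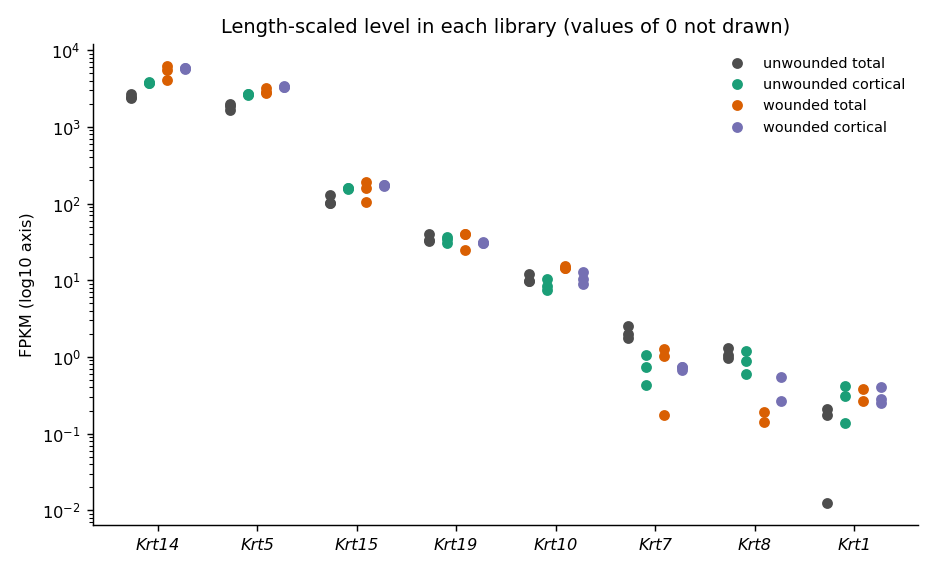
Length-scaled level (FPKM, log10 axis) of 8 keratins in each of the 12 libraries, coloured by group; points at 0 are not drawn and Krt18 is left out. The first 5 genes from the left keep their order in each group, whereas Krt7, Krt8 and Krt1 lie within the lowest decades with overlapping points.

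The 9 genes took a larger share of all counts in cortical than in total libraries and in wounded than in unwounded ones. The share was 0.853% ± 0.0927 (SD, n = 3) in unwounded total, 1.40% ± 0.00626 in unwounded cortical, 1.45% ± 0.0647 in wounded total and 1.91% ± 0.0395 in wounded cortical. All keratin genes together took 1.39%, 2.16%, 2.28% and 2.93% in the same order. These shares follow Krt5 and Krt14, which held most of the counts. They are not on the TMM scale. Scaling by library size alone moved the median log2 difference of all genes by 0.187 between unwounded and 0.211 between wounded fractions. With TMM, neither gene was called between wounded fractions (log2 fold change 0.16, edgeR adjusted p = 0.442 for Krt14, and 0.19, adjusted p = 0.21 for Krt5). In bulk samples such as these, fewer cells of a type and less RNA per cell cannot be told apart.

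Between 0 and 3 of the 8 keratins tested passed the edgeR quasi-likelihood test in each comparison, at an adjusted p of 0.05 (Benjamini-Hochberg over 13571 genes). Those that did were mainly the basal pair. In unwounded cells, 3 were called between cortical and total fractions (Krt5 and Krt14 higher, Krt7 lower), where 14.2% of all tested genes were called (6.62% higher and 7.59% lower). In wounded cells, 0 were called between the fractions, where 15.7% of all tested genes were called (7.62% higher and 8.03% lower). In that comparison 1 of the 9, Krt10, had an unadjusted p under 0.05, DESeq2 called 1, also Krt10, and voom with library weights called 3. On wounding, 2 were called in the total fraction (Krt5 and Krt14, both higher), where 15.6% of all tested genes were called (8.39% higher and 7.2% lower). In the cortical fraction, 1 was called on wounding (Krt14, higher), against 2.48% of all tested genes (1.6% higher and 0.884% lower). The interaction, which is the cortical-to-total log2 ratio of wounded cells minus that of unwounded cells, was called for 0 of the 9 and for 0.125% of all tested genes (0.0221% higher and 0.103% lower). For the interaction 2 of the 9 had an unadjusted p under 0.05, DESeq2 called 0, and voom with library weights called 2. Groups of 3 that did not overlap in CPM were found for 4 keratins between the fractions of unwounded cells, where 36.2% of tested genes did not overlap (17.1% higher and 19.1% lower). The corresponding counts were 2 in wounded cells (29.2% of tested genes, 16.2% higher and 12.9% lower), 5 on wounding in the total fraction (32.1%, 14.5% higher and 17.6% lower) and 4 on wounding in the cortical fraction (26.9%, 15.4% higher and 11.5% lower). Comparisons that share a group are not independent of each other, since each group enters more than 1 of them.

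**Figure D2:**
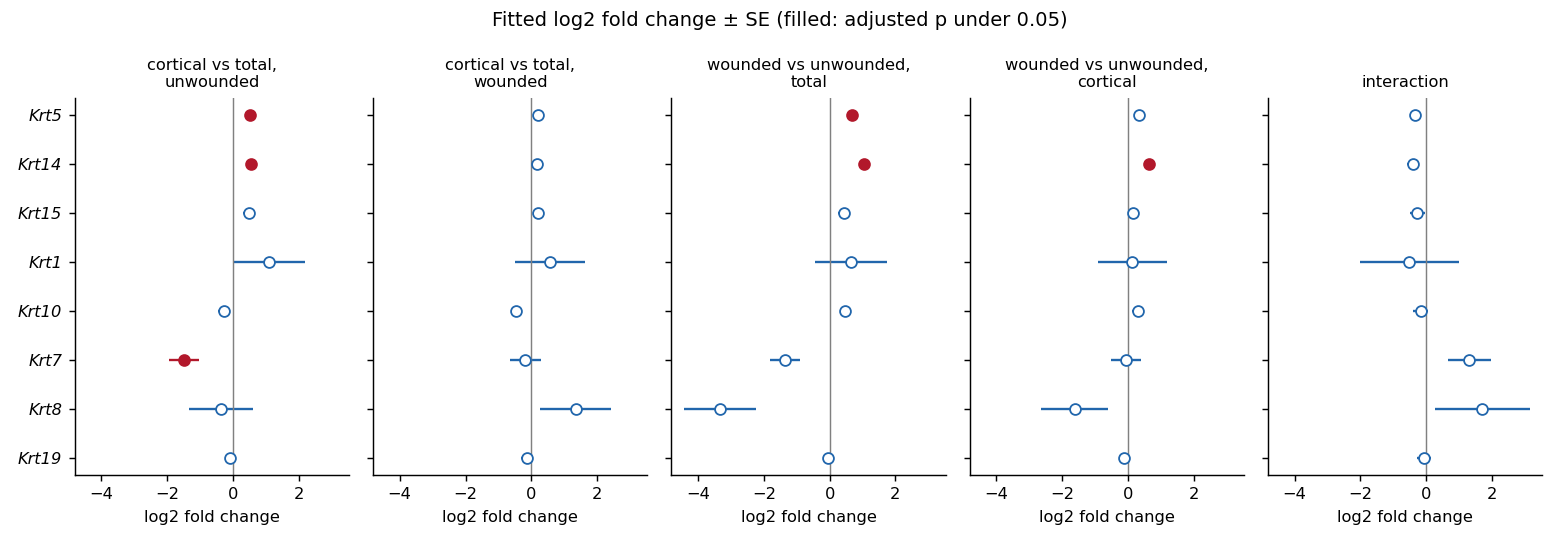
Fitted log2 fold change (horizontal axis) with its standard error for 8 keratins in each of the 4 comparisons and the interaction; filled red points have an adjusted p under 0.05 and open blue points do not. The filled points are Krt5, Krt14 and Krt7 in the first panel, Krt5 and Krt14 in the third and Krt14 in the fourth.

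Leaving out wounded total replicate 1 changed these counts. Without it, 4 keratins were called between the fractions of unwounded cells (Krt15 joined), 3 between the fractions of wounded cells (Krt5 higher, Krt10 and Krt19 lower), 6 on wounding in the total fraction, 2 on wounding in the cortical fraction (Krt5 joined) and 1 for the interaction (Krt14). The number of all genes called was also higher without it, going from 1928, 2124, 2116, 337 and 17 to 3151, 3475, 3502, 1276 and 413 in the same order.

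Krt14, the type I chain of the basal pair, was the most abundant keratin and rose both with wounding and towards the cortical fraction. Its level was 4434, 4229 and 4804 CPM in the 3 unwounded total libraries and 6527, 6687 and 6614 CPM in unwounded cortical. It was 7037, 9791 and 10888 CPM in wounded total and 10249, 10372 and 10437 CPM in wounded cortical. The unwounded total libraries were the lowest of all, the unwounded cortical libraries lay in a narrow band above them, and only wounded total was widely spread, with replicate 1 well below the others. In unwounded cells Krt14 was 1.47-fold higher in the cortical fraction (log2 fold change 0.56, SE 0.13, edgeR adjusted p = 0.00788), and the groups did not overlap. This call was lost when FPKM was tested with limma (adjusted p = 0.0687 and 0.0763 with 1 and 0.1 added). On wounding it rose 2.06-fold in the total fraction (log2 fold change 1.04, SE 0.13, edgeR adjusted p = 7.85e-05). In the cortical fraction it rose 1.57-fold (log2 fold change 0.65, SE 0.13, edgeR adjusted p = 0.013), again with no overlap. The call in the cortical fraction was lost when any 1 of the 6 cortical libraries was left out, with log2 fold changes of 0.64 to 0.66 and adjusted p from 0.0591 to 0.0687. It was also lost on FPKM (limma adjusted p = 0.109 and 0.124). In wounded cells the fractions overlapped (log2 fold change 0.16, adjusted p = 0.442), and without wounded total replicate 1 the difference was -5.3e-04 on the log2 scale (adjusted p = 0.999).

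Krt5, the type II partner of Krt14, followed the same order of groups, with smaller steps than Krt14 on wounding and between unwounded fractions. Its level was 4182, 3707 and 4348 CPM in unwounded total, 5958, 5832 and 5779 CPM in unwounded cortical, 7107, 6281 and 6087 CPM in wounded total, and 7353, 7637 and 7300 CPM in wounded cortical. None of the 4 groups overlapped with another. In unwounded cells Krt5 was 1.44-fold higher in the cortical fraction (log2 fold change 0.52, SE 0.10, edgeR adjusted p = 0.00251). On wounding it rose 1.59-fold in the total fraction (log2 fold change 0.67, SE 0.10, edgeR adjusted p = 3.5e-04). Both calls held in all 26 alternatives run for each, a set that included leaving out each library in turn. In wounded cells the cortical-to-total difference was 0.19 on the log2 scale (SE 0.10, adjusted p = 0.21), and 0.26 without wounded total replicate 1 (adjusted p = 0.014). In the cortical fraction the difference on wounding was 0.34 (SE 0.10, adjusted p = 0.0784), and it was called without that library (0.34, adjusted p = 0.00265).

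Krt15, a type I chain of basal cells and of hair follicle stem cells, was present at a small fraction of the level of Krt14. It was at 184, 182 and 231 CPM in unwounded total, 281, 277 and 277 CPM in unwounded cortical, 184, 284 and 338 CPM in wounded total, and 310, 302 and 318 CPM in wounded cortical. Cortical libraries were close to each other, whereas wounded total replicate 1 lay at the level of the unwounded total libraries. The difference between fractions of unwounded cells was 0.48 on the log2 scale (SE 0.16, edgeR adjusted p = 0.0578), with no overlap between the groups. It passed without unwounded total replicate 3 (0.60, adjusted p = 0.04), without wounded total replicate 1 (0.48, adjusted p = 4.9e-04) and without wounded total replicate 3 (0.50, adjusted p = 0.0178). On wounding, the total fraction gave 0.43 (SE 0.16, adjusted p = 0.0853), and 0.64 without wounded total replicate 1 (adjusted p = 5.72e-05). The wounded fractions overlapped (0.21, adjusted p = 0.446), and the cortical fraction differed by 0.15 on wounding (adjusted p = 0.697).

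**Figure D3:**
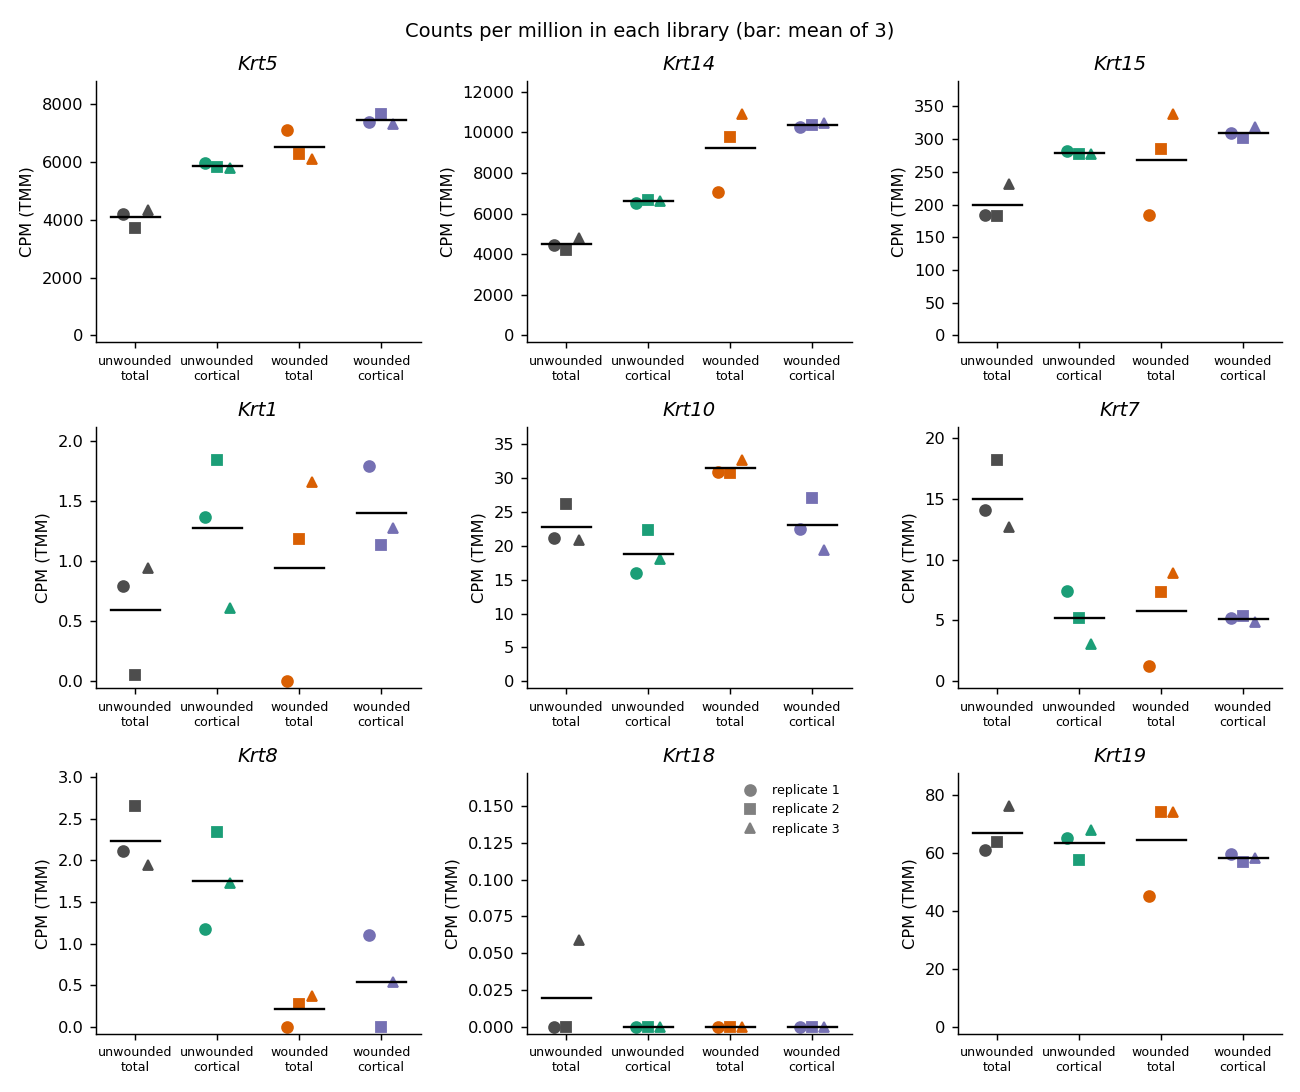
TMM-scaled CPM in each library for the 9 keratins, with each panel on its own linear axis; symbols give the replicate, colours the group and bars the mean of 3. In wounded total, replicate 1 is the lowest library for Krt14, Krt15, Krt1, Krt7, Krt8 and Krt19, and the highest for Krt5.

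The balance of the basal pair was compared within libraries, since Krt5 and Krt14 chains assemble with each other and a ratio of counts does not depend on library scaling. Krt5 had 0.943, 0.877 and 0.905 counts per Krt14 count in unwounded total and 0.913, 0.872 and 0.874 in unwounded cortical. In wounded cells the ratio was 1.01, 0.641 and 0.559 in the total fraction and 0.717, 0.736 and 0.699 in the cortical fraction. All wounded cortical libraries lay below all unwounded ones, and so did wounded total replicates 2 and 3, while wounded total replicate 1 was the highest of the 12. On wounding the log2 ratio differed by -0.30 in the cortical fraction with no overlap between groups (exact two-sided permutation test, p = 0.1, which is the smallest that 3 against 3 allows, adjusted p = 0.8 over 8 tests). In the total fraction the difference was -0.35 (exact permutation p = 0.4), and -0.60 without wounded total replicate 1 (exact permutation p = 0.1, the smallest possible). The fractions differed by -0.04 in unwounded cells (exact permutation p = 0.5) and by 0.01 in wounded cells (exact permutation p = 1). Per kilobase of gene, the Krt5 to Krt14 ratio was 0.727 ± 0.0267 (SD, n = 3) in unwounded total, 0.709 ± 0.0184 in unwounded cortical, 0.590 ± 0.192 in wounded total and 0.574 ± 0.0148 in wounded cortical.

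**Figure D4:**
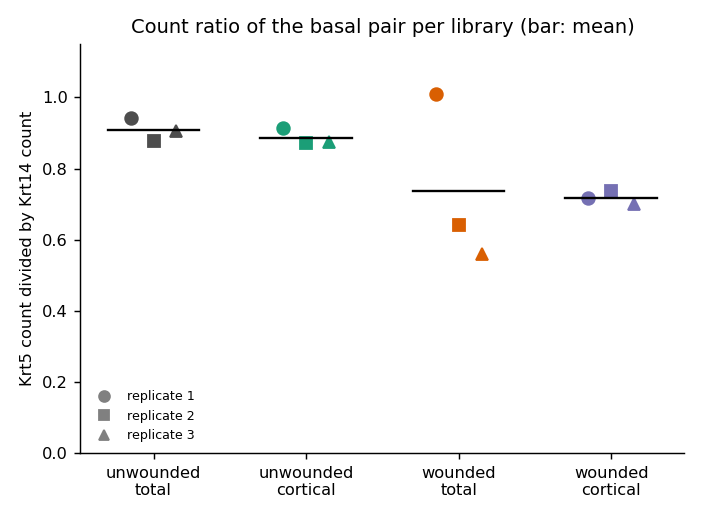
Count of Krt5 divided by count of Krt14 in each library (vertical axis from 0), by group, with replicates as symbols and the group mean as a bar. The 6 unwounded libraries lie between 0.872 and 0.943, and 5 of the 6 wounded libraries lie between 0.559 and 0.736, with wounded total replicate 1 at 1.01.

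Krt10, the type I chain of the first suprabasal cells, was low and had its highest values in wounded total. It was at 21.1, 26.2 and 20.9 CPM in unwounded total, 16.0, 22.3 and 18 CPM in unwounded cortical, 30.9, 30.8 and 32.7 CPM in wounded total, and 22.5, 27.0 and 19.4 CPM in wounded cortical. The wounded total libraries lay above all others, including replicate 1. On wounding, the total fraction differed by 0.47 on the log2 scale (SE 0.16, edgeR adjusted p = 0.0615), and by 0.48 without wounded total replicate 1 (adjusted p = 0.0422). Between the wounded fractions the difference was -0.45 (SE 0.16, adjusted p = 0.0702), and -0.47 without that library (adjusted p = 0.0483). In unwounded cells the difference was -0.28 (SE 0.17, adjusted p = 0.315), with overlap. The direction of the fraction differences was thus opposite in sign to that of Krt5 and Krt14 under each scaling tried.

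Krt1, the type II partner of Krt10, was near the limit of detection. Its counts were 18, 1 and 16 in unwounded total, 35, 22 and 6 in unwounded cortical, 0, 21 and 27 in wounded total, and 44, 18 and 26 in wounded cortical. All comparisons overlapped, with adjusted p from 0.614 to 0.973 and standard errors of 1.06 to 1.09 on the log2 scale. A difference of about 1 log2 unit was therefore not detectable at this depth. There were 0.0283 ± 0.0229 (SD, n = 3) Krt1 counts per Krt10 count in unwounded total, 0.0673 ± 0.0290 in unwounded cortical, 0.0296 ± 0.0264 in wounded total and 0.0623 ± 0.0191 in wounded cortical. These ratios overlapped in each comparison (exact permutation p from 0.3 to 0.8, adjusted p of at least 0.8), with wounded total replicate 1 left out of the test because it had 0 Krt1 counts. The suprabasal pair was thus unequal in these cultures, with Krt10 far above Krt1 in both counts and FPKM.

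Krt7, a type II keratin of ducts and glands, was the keratin that fell in the cortical fraction of unwounded cells. It was at 14.1, 18.2 and 12.7 CPM in unwounded total and at 7.43, 5.18 and 3.05 CPM in unwounded cortical. It was at 1.25, 7.30 and 8.89 CPM in wounded total and at 5.21, 5.35 and 4.85 CPM in wounded cortical. The unwounded total libraries stood above the 9 others, which overlapped. The cortical level in unwounded cells was 2.80-fold lower (log2 fold change -1.49, SE 0.46, edgeR adjusted p = 0.0398). The call was lost without any 1 of unwounded total replicates 1 to 3, unwounded cortical replicates 2 or 3, or wounded cortical replicates 1 to 3, with log2 fold changes of -1.60 to -1.24 and adjusted p from 0.0522 to 0.161. It was also lost with library size scaling (-1.30, adjusted p = 0.0519) and on FPKM plus 0.1 (limma, -1.44, adjusted p = 0.0972). On wounding, the total fraction differed by -1.36 (SE 0.46, adjusted p = 0.053), by -0.89 without wounded total replicate 1 (adjusted p = 0.0256) and by -1.81 without wounded total replicate 3 (adjusted p = 0.0278). Krt7 values in the wounded fractions overlapped (log2 fold change -0.18, adjusted p = 0.853), and the cortical fraction differed by -0.06 on wounding (adjusted p = 0.974).

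Krt8, the type II chain of simple epithelia, was detected at low counts, most of them in unwounded libraries. It passed the filter on low counts through the unwounded groups, so its lower values in wounded groups are not independent of that filter. The 0 in wounded total was in replicate 1, where 35.9% of the genes expected at 10 to 20 counts were at 0. Its counts were 48, 47 and 33 in unwounded total, 30, 28 and 17 in unwounded cortical, 0, 5 and 6 in wounded total, and 27, 0 and 11 in wounded cortical. In CPM these were 2.11, 2.65 and 1.94, then 1.17, 2.34 and 1.73, then 0, 0.281 and 0.368, and last 1.10, 0 and 0.539. Each wounded group lay below the unwounded group of the same fraction without overlap. The fitted level in wounded total was 10.1-fold below that in unwounded total (log2 fold change -3.33, SE 1.10, edgeR adjusted p = 0.0504). It passed in 12 of the 25 alternatives that kept Krt8, among them without wounded total replicate 1 (-2.76, adjusted p = 0.0454) and without wounded cortical replicate 2 (-3.33, adjusted p = 0.0201). In the cortical fraction the difference was -1.62 (SE 1.01, adjusted p = 0.445). The fractions overlapped in unwounded cells (-0.36, SE 0.97, adjusted p = 0.882) and in wounded cells (1.35, SE 1.08, adjusted p = 0.459).

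Krt18, the type I partner of Krt8, had 1 count in unwounded total replicate 3 and 0 in the other 11 libraries. A count of 0 allows up to 3 counts, which came to 0.128 to 0.334 CPM across the libraries and covers counting error only. Krt8 reached 2.65 CPM and its partner did not reach this limit in any library, so no Krt8 to Krt18 ratio was computed.

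Krt19, a type I keratin of simple epithelia and hair follicle cells, was the most abundant simple epithelial keratin and showed no called difference. It was at 61.2, 63.8 and 76.3 CPM in unwounded total, 65.0, 57.8 and 67.8 CPM in unwounded cortical, 45.2, 74.0 and 74.2 CPM in wounded total, and 59.8, 57.0 and 58.4 CPM in wounded cortical. The groups overlapped in each comparison. The log2 differences were -0.08 and -0.14 between fractions of unwounded and wounded cells and -0.06 and -0.12 on wounding in the total and cortical fractions, with standard errors of 0.16 and edgeR adjusted p from 0.606 to 0.86. Wounded total replicate 1 was the lowest library, and without it the cortical level of wounded cells was lower by -0.35 on the log2 scale (adjusted p = 0.0269). The sign of the small fraction differences turned with library size scaling, to 0.11 in unwounded and 0.10 in wounded cells.

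Whether the fraction difference itself changed with wounding was tested by the interaction. It was -0.39 (SE 0.18, edgeR adjusted p = 0.534) for Krt14 and -0.33 (SE 0.14, adjusted p = 0.511) for Krt5, and the cortical excess of both was smaller in wounded cells. Without wounded total replicate 1 the Krt14 value was -0.56 (adjusted p = 0.00325), and that of Krt5 was -0.26 (adjusted p = 0.19). For Krt7 the interaction was 1.31 (SE 0.65, adjusted p = 0.583) and for Krt8 1.71 (SE 1.45, adjusted p = 0.788). The other 4 keratins had interactions between -0.52 and -0.06 with adjusted p from 0.785 to 0.959. A keratin called in unwounded and not in wounded cells was therefore not shown to differ between them, except for Krt14 without that library and, with voom and library weights, for Krt14 (-0.51, adjusted p = 0.00412) and Krt15 (-0.45, adjusted p = 0.0432). With library size scaling in place of TMM, the median of all genes moved by 0.187 between the fractions of unwounded cells and by 0.211 between those of wounded cells. Cortical-to-total values above are relative to the TMM scale, and the differences of Krt5 and Krt14 in unwounded cells were above the median of all genes under both scalings.

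**Figure D5:**
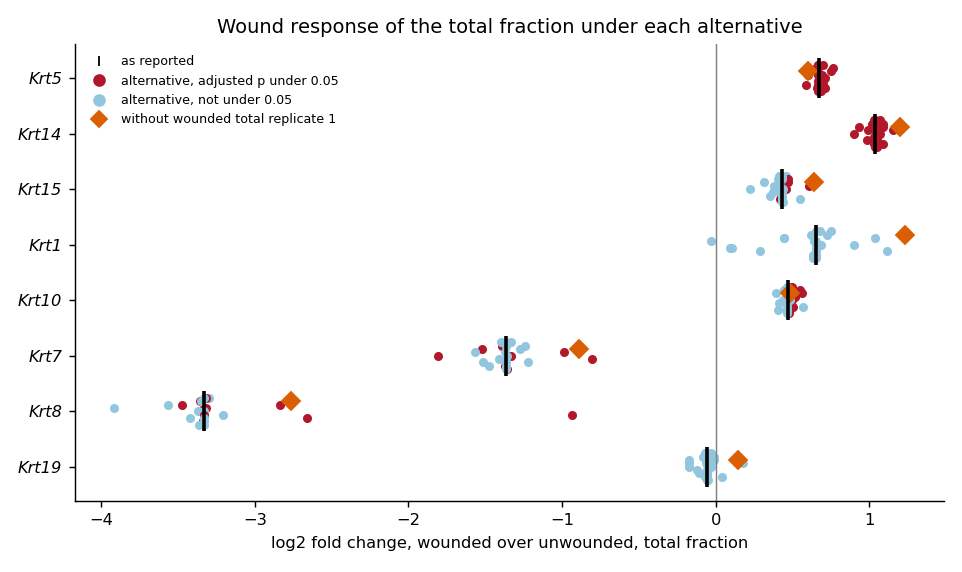
Log2 fold change on wounding in the total fraction for 8 keratins as reported (black bar) and under each alternative (points; red where the adjusted p was under 0.05), with the value without wounded total replicate 1 as an orange diamond. Krt5 and Krt14 were called throughout, at 0.59 to 0.76 and 0.90 to 1.20, whereas Krt7 ranged from -1.81 to -0.80 and Krt19 lay on both sides of 0.

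Genes that act with these keratins were counted from lists written with earlier results of these data known. Each count stands beside the share of all tested genes called in the same comparison, which was 14.2% between unwounded fractions, 15.7% between wounded fractions, 15.6% on wounding in the total fraction and 2.48% in the cortical fraction. Among 14 genes of basal cell adhesion and identity, 7 rose in the cortical fraction of unwounded cells, 4 in that of wounded cells, 6 on wounding in the total fraction and 3 in the cortical fraction, and the called ones were all higher. Lamb3, a chain of the laminin under basal cells, was at 85.0 ± 11.9 CPM (SD, n = 3) in unwounded total, 157 ± 12.9 in unwounded cortical, 205 ± 23.9 in wounded total and 251 ± 2.99 in wounded cortical. It rose on wounding in the total fraction (log2 fold change 1.27, SE 0.12, edgeR adjusted p = 6.14e-06). Col17a1, the hemidesmosomal collagen of basal cells, rose in the same fraction by 0.61 (SE 0.12, adjusted p = 0.00197). Without wounded total replicate 1 the counts became 9 higher and 2 lower between unwounded fractions, and 9 higher and 2 lower between wounded fractions. The median log2 difference of the 14 was 0.40 between unwounded fractions, 0.24 between wounded fractions, 0.37 on wounding in the total and 0.24 in the cortical fraction, against 0.00229, 0.0416, -0.0257 and 0.0153 for all tested genes.

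Among 18 suprabasal companions 15 were tested, and those called lay in both directions. Between unwounded fractions 2 were higher and 1 lower in the cortical fraction (20% of those tested, against 14.2% of all genes), and between wounded fractions 2 were higher and 3 lower (33.3% against 15.7%). On wounding 3 rose and 1 fell in the total fraction (26.7% against 15.6%), and 1 rose in the cortical fraction (6.67% against 2.48%). Without wounded total replicate 1 these counts became 3 and 4, 3 and 5, 4 and 2, and 2 and 1. With all libraries, the companion that fell on wounding in the total fraction was Grhl3, which is also counted among the transcription regulators below. Krtdap, a secreted protein of suprabasal cells, was lower in the wounded cortical than the wounded total fraction (log2 fold change -0.98, SE 0.21, edgeR adjusted p = 0.00456, and -1.26 without wounded total replicate 1). Ivl, the cornified envelope protein involucrin, was at 11.3 ± 1.92 CPM in unwounded total and 18.6 ± 6.65 in wounded total (log2 fold change 0.72, adjusted p = 0.0465), and this held in 7 of 26 alternatives and was lost without wounded total replicate 1 (0.38, adjusted p = 0.2). The median log2 differences of the tested genes were 0.10, -0.02, 0.19 and 0.05, in the order of comparisons used above, against 0.00229, 0.0416, -0.0257 and 0.0153 for all tested genes.

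Of 12 simple epithelial companions 9 were tested. Cldn4, a tight junction claudin, was higher in the cortical fraction of unwounded cells (0.48, SE 0.10, edgeR adjusted p = 0.00348), and Spint2, a membrane-bound serine protease inhibitor, was lower (-0.44, SE 0.10, adjusted p = 0.00706). On wounding in the total fraction 4 rose and 1 fell (55.6% of those tested, against 15.6% of all tested genes). The one that fell was Cd24a, a surface glycoprotein of epithelial progenitors (-0.59, SE 0.14, adjusted p = 0.00836), and among those that rose was Elf3, an epithelial transcription factor (0.63, SE 0.12, adjusted p = 0.00192). The tested genes had median log2 differences of 0.02, 0.02, 0.40 and 0.30 in the 4 comparisons.

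Proteins that link or modify keratin filaments were also counted. Of 16 such genes, all tested, 7 were higher and 2 lower in the cortical fraction of unwounded cells. The counts were the same between wounded fractions and on wounding in the total fraction. In each of these comparisons 56.25% were called, against 14.2%, 15.7% and 15.6% of all tested genes. Plec, the cytolinker plectin, was 104 ± 5.61 CPM in unwounded cortical and 40.3 ± 4.45 in unwounded total (log2 fold change 1.37, SE 0.11, edgeR adjusted p = 5.3e-07). Dsp, the desmoplakin gene, rose on wounding in the total fraction (0.76, SE 0.10, adjusted p = 1.95e-04), and the fusion construct also encodes a piece of desmoplakin, whose part in these counts was not tested. Sfn, the 14-3-3 sigma protein that binds keratins, was lower in the cortical fraction of unwounded cells (-0.67, SE 0.10, adjusted p = 3.29e-04). The median log2 differences of the 16 were 0.38, 0.33, 0.13 and 0.17.

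The stress keratins Krt6a, Krt6b, Krt16 and Krt17, which are induced in wounded epidermis, each share 50-base windows with Krt5 or Krt14. Of these 4, 3 were called higher in the cortical fraction of unwounded cells, 4 on wounding in the total fraction and 3 on wounding in the cortical fraction. Of all tested genes 6.62%, 8.39% and 1.6% were called higher in the same comparisons. Between wounded fractions, where 15.7% of all tested genes were called, edgeR called 0 of the 4, with a median log2 difference of 0.0034. In that comparison 0 had an unadjusted p under 0.05, and DESeq2, voom and both limma fits on FPKM also called 0. Across all the alternatives run, 0 to 2 of them were called higher and 0 lower. Krt16 rose on wounding in the total fraction by 1.77 on the log2 scale (SE 0.12, edgeR adjusted p = 2.37e-07), from 169 ± 7.82 to 578 ± 91.0 CPM, and Krt6a by 0.85 (SE 0.11, adjusted p = 1.14e-04). Their median difference there was 1.31, against 0.67 for Krt5 and 1.04 for Krt14. Of 16 other keratins listed 6 were tested, and 1, Krt78, was called higher between unwounded fractions (16.7% of those tested, against 14.2% of all tested genes). On wounding 2 rose in the total fraction (33.3%, against 15.6%). These were Krt78 (3.19, SE 0.28, edgeR adjusted p = 2.62e-06) and Krt80 (0.59, SE 0.19, adjusted p = 0.0417). The Krt80 call was lost without wounded total replicate 1 (adjusted p = 0.104). Krt78 also rose in the cortical fraction (1.08, SE 0.26, edgeR adjusted p = 0.0347), a call held in 14 of 26 alternatives.

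Of 22 transcription regulators of keratin genes, all tested, 4 were higher in the cortical fraction of unwounded cells (18.2%, against 6.62% of all genes called higher) and 2 in that of wounded cells (9.09%, against 7.62%). On wounding in the total fraction 1 rose and 4 fell (22.7% called, against 15.6% of all genes). Without wounded total replicate 1, 5 were higher between wounded fractions, and on wounding 2 rose and 6 fell in the total fraction. Notch1, a receptor that promotes suprabasal differentiation, fell in the total fraction from 116 ± 4.33 to 59.2 ± 6.72 CPM (log2 fold change -0.97, SE 0.11, edgeR adjusted p = 2.69e-05). In wounded cells Notch1 was higher in the cortical fraction, at 109 ± 9.34 CPM (0.89, SE 0.11, edgeR adjusted p = 1.76e-04). Grhl3, a factor of terminal differentiation, fell on wounding in the total fraction by 1.23 on the log2 scale (SE 0.31, edgeR adjusted p = 0.0133). That call was lost without unwounded total replicate 3 or wounded total replicate 3 (adjusted p of at most 0.0687). Klf5, a basal and progenitor factor, was higher in the cortical fraction of unwounded cells (1.00, SE 0.19, adjusted p = 0.00205). The median log2 differences of the 22 were -0.03, 0.11, -0.14 and -0.18.

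RefSeq promoter windows (GRCm38.p6, 250 bases before to 50 after the start site) were given for 6 of the 9 genes, Krt5, Krt14, Krt10, Krt7, Krt8 and Krt18. Each was searched on both strands for 4 motifs, with 32851 windows of the same length as background. The AP-1 letters TGANTCA were in 7.81% of all windows. The GC box letters GGGCGG were in 35.7% of them. The AP-2 letters GCCNNNGGC were in 16.6% of them. The TATA box letters TATAAA were in 13.6% of them. Krt7 held 4 GC box and 2 AP-2 matches, of which 1 pair overlaps, Krt18 held 1 AP-2 match, and the TATA box letters were in Krt10 and, as 2 overlapping matches on opposite strands, in Krt8. The letters of the 4 motifs were not in the windows of Krt5 and Krt14. The Krt14 window starts from a site 1518 bases inside the gene, counted from the gene start of the count table. It lies downstream of the exon 1 stretch shown above, so the bases before the Krt14 gene start were not searched. The Krt7 window starts from a site 1360 bases inside its gene. A match describes letters in a window and no more.

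The genes most like each keratin across the 12 libraries were picked by Pearson's r of log2 CPM among 8856 protein-coding genes averaging 100 counts or more. The 12 libraries form 4 groups and share library depth, so r is a description. For Krt5 they included Lamb3 (r = 0.989) and Dst (0.985), and for Krt14 they were Tmem63a (0.987), Tecr (0.985) and Atxn10 (0.984). Krt15 was most like Cct8 (0.969), Klhdc10 (0.950) and Zranb1 (0.944). Krt10 was most like Ndfip1 (0.937), Eapp (0.929) and Fxyd4 (0.922), and Krt1 was most like Adam8 (0.893), Abcf3 (0.886) and Hdac10 (0.885). Among the simple epithelial keratins, Krt7 was most like Nrtn (0.931), Pa2g4 (0.923) and Phb2 (0.920), and Krt8 was most like Eif5 (0.939), Ankrd49 (0.937) and Bid (0.929). Krt19 was most like Cdc123 (0.883), 1700021F05Rik (0.877) and Pgp (0.871).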

How the data were processed

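The authors deposited a table of fragment counts per gene and a table of FPKM (fragments divided by gene length and library depth), 1 column per library, per the file headers; 0 per-sample columns were unused. Per the labels' protocols, libraries were made from poly(A) RNA by random priming, without strand information. CASAVA, HISAT2 and mm10 are named in the submitters' processing notes, without versions; the counting tool and annotation are not given in the sources used here. Gene coordinates of the 9 keratins were identical to those in GENCODE M21.

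Counts were fitted in R 4.3.3 with edgeR 4.0.16 (filterByExpr, TMM, 1 quasi-likelihood fit of 12 libraries with a mean per group) and 5 contrasts, adjusted over 13571 genes. Log2 fold changes are fitted, and folds printed beside them are the same values on a linear scale. Log2 CPM used a prior count of 2. Count ratios used exact permutation tests, adjusted over 8 tests and not the 12 planned, because Krt18 was at 0. FPKM was tested with limma 3.58.1 only as an alternative. The other alternatives used DESeq2 1.42.0, other scalings and filters, the replicate number as a block, a length trend removed (loess span 0.5) and leaving out each library; voom with library quality weights was chosen after seeing the data. The fits were run on simulated counts (seed 1) with the same spread for all genes and libraries. That simulation held no library like wounded total replicate 1, so it does not cover that feature of the data. Drawing used python 3.11.15 and matplotlib 3.10.9.

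Named genes are the 9 keratins, up to 3 called genes with the largest change per list and comparison, and the 3 genes most like each keratin; only some of those the rule allows are printed, and 1 similar gene and 1 sequence are not reported here. The keratins and lists were chosen with earlier results of these data known.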

Additional observations from a re-analysis of the deposited data

Results flagged for a closer look

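The cortical-to-total difference of 3 other keratins differed between wounded and unwounded cells by a test of the difference itself (edgeR interaction). It was -1.30 on the log2 scale for Krt6b (SE 0.23, adjusted p = 0.0325), -0.89 for Krt16 (SE 0.16, adjusted p = 0.0396) and -2.11 for Krt78 (SE 0.38, adjusted p = 0.0325). Without wounded total replicate 1 the values were -1.46, -1.01 and -1.84. Of the 25 alternatives, the call held in 13 for Krt6b, in 11 for Krt16 and in 11 for Krt78. In the rest the adjusted p reached 0.136, 0.21 and 0.163. All 3 calls were lost in both FPKM fits, with the replicate block and without any 1 of the wounded cortical libraries. None of the basal, suprabasal or simple epithelial keratins passed this test with all libraries.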

How the results depend on the processing

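The count of the 9 keratins called changed with the settings below. Between unwounded fractions (3 called), limma called 1 on FPKM plus 0.1 and 2 on FPKM plus 1. DESeq2, keratins left out of the scaling, a mean of at least 50 counts, no low-count filter, length trend removal with and without the block, voom and only the groups compared called 4, and leaving out 1 library gave 2 to 4. Between wounded fractions (0 called), library size scaling and voom called 3, length trend removal with the replicate block 2, and DESeq2, a mean of at least 50 counts, the replicate block and length trend removal 1 each, and leaving out 1 library gave 0 to 3. On wounding in the total fraction (2 called), DESeq2 and voom called 6. FPKM plus 1, no filter and length trend removal called 5. Upper quartile and library size scaling, FPKM plus 0.1, a mean of at least 50 counts and length trend removal with the block called 4. Median-of-ratios scaling, keratins left out of the scaling, the replicate block and only the groups compared called 3, and leaving out 1 library gave 2 to 6. In the cortical fraction (1 called), DESeq2, voom and fitting only the groups compared called 2, both FPKM fits called 0, and leaving out 1 library gave 0 to 2. For the interaction (0 called), voom called 2 and leaving out 1 library gave 0 to 1. The cause of these shifts was not tested.
Of 1021 recomputed keratin values, 24 changed sign, 0 of them for a called keratin. Krt19 turned to 0.11 (library size), 0.14 (length trend) and 0.14 (length trend with block) between unwounded fractions. Between wounded fractions it turned to 0.10 (library size) and 0.0031 (length trend with block), and on wounding in the total fraction to 0.18 (voom). Krt7 turned to 0.12 (library size) and 0.11 (FPKM plus 0.1) between wounded fractions, and to 0.033 (FPKM plus 0.1) on wounding in the cortical fraction. The Krt1 to Krt10 log2 ratio on wounding in the total fraction turned to -0.34 with 1 count added. Leaving out 1 library gave ranges across 0. Between unwounded fractions this was -0.13 to 0.021 for Krt19. Between wounded fractions it was -5.3e-04 to 0.30 for Krt14, -0.0077 to 0.41 for Krt15, -0.015 to 1.24 for Krt1, -0.66 to 0.26 for Krt7 and -0.17 to 0.26 for the Krt5 to Krt14 log2 ratio. On wounding in the total fraction it was -0.030 to 1.23 for Krt1 and -0.18 to 0.14 for Krt19. For the cortical fraction it was -0.19 to 0.47 for Krt1, -0.31 to 0.31 for Krt7 and -0.48 to 0.22 for the Krt1 to Krt10 log2 ratio. For the interaction it was -1.10 to 0.14 for Krt1 and -0.27 to 0.029 for Krt19.
All-gene counts moved by over 1.5 times in the listed settings. They were 3708 (voom) and 3014 (only the groups compared) against 1928, with 949 to 3151 without 1 library. Between wounded fractions they were 1365 (length trend with block), 4441 (voom) and 970 (only the groups compared) against 2124, with 1084 to 3475 without 1 library. On wounding in the total fraction they were 5206 (voom) and 1175 (only the groups compared) against 2116, with 1128 to 3502 without 1 library. For the cortical fraction they were 199 (library size), 736 (DESeq2), 559 (no filter), 1316 (voom) and 1423 (only the groups compared) against 337, with 108 to 1276 without 1 library. For the interaction they were 11 (library size), 72 (DESeq2), 10 (both FPKM fits and the block), 138 (no filter), 30 (length trend, with and without block) and 855 (voom) against 17, with 4 to 413 without 1 library. Library size scaling called 1582 higher and 469 lower between unwounded fractions (898 and 1030 as reported) and 2203 higher and 520 lower between wounded fractions (1034 and 1090). It called 708 higher and 1104 lower on wounding in the total fraction (1139 and 977) and 108 higher and 91 lower in the cortical fraction (217 and 120). Length trend removal called 365 higher and 1094 lower between wounded fractions, and 1909 higher and 664 lower on wounding in the total fraction. With the block these were 342 and 1023, and 1827 and 657.
Same-numbered libraries shared little of their deviation from the group means (correlations -0.033 to 0.091). With 3 libraries per group this cannot show whether libraries were paired, and the labels state no pairing. Since total is what the resin left behind, the fractions may be paired by replicate. With the replicate block, Krt15 between unwounded fractions (adjusted p = 0.0365) and Krt10 between wounded fractions (0.0477) and on wounding in the total fraction (0.0403) were called by edgeR, and Krt7 between unwounded fractions was not (0.0594). The Krt8 to Krt18 ratio could not be computed, and fitting only the groups compared gives no interaction. Of 1817 values recomputed for other named genes, 0 changed sign. Depth limits Krt1, Krt8 and Krt18, which had 234, 252 and 1 counts over the 12 libraries.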
